A study of Caenorhabditis elegans with 2 samples.

Results

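The hypoxia response pathway was described here through 6 Caenorhabditis elegans genes, hif-1, aha-1, egl-9, vhl-1, rhy-1 and cysl-1, out of 19973 protein-coding genes on the nuclear chromosomes. The data are ChIP-seq peak lists for MDL-1, a Mad-like bHLH-Zip protein, from 2 biological replicates of 1 group. Both replicates were whole larvae at stage L2 of pooled sex, of strain OP355. The strain carries the unc-119(tm4063) allele on chromosome III and the transgene wgIs355, with mdl-1 named as its target. Where in the genome wgIs355 lies was not examined. No second genotype, treatment or oxygen level was analysed, so the lists show where signal lay and not how it responds to hypoxia. A whole-larva library mixes all tissues, so the cells behind a peak are not known. A note on both samples describes a C-terminal GFP-FLAG tag, but names KLU-1 and not MDL-1 as the protein that carries it. The strongest peak of the optimal list, ranked 1 in each replicate's own list, had its summit 94 bp from a start of mdl-1. Whether the transgene adds to the signal there, and which protein carries the tag, was not tested.

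The 6 genes were chosen by the presence of peaks of the optimal list near hif-1, aha-1 and egl-9, so the number of peaks near them is a description and carries no test. A region was assigned to a gene when its summit, the position marked as highest by the authors' caller, lay inside the gene or within 5 kb of either end. A total of 4 lists were read, namely the optimal list of 1076 peaks that passed a threshold on reproducibility between replicates, a pooled list of 30000 peaks and background regions, and a list of 30000 such regions for each replicate. The signal is the authors' value per region, on a scale that is not stated in the sources used here. It was used to rank regions within a list.

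HIF-1 is the worm's hypoxia-inducible factor alpha subunit, a bHLH-PAS protein that binds DNA together with AHA-1, the ARNT-type beta subunit. When oxygen is present, the prolyl hydroxylase EGL-9 modifies HIF-1, and the von Hippel-Lindau protein VHL-1 then directs it to degradation by a cullin ubiquitin ligase. CYSL-1, a cysteine synthase-like protein, binds EGL-9 and restrains it, and RHY-1, a membrane protein with an acyltransferase-like domain, acts upstream to keep CYSL-1 in check. HIF-1 complexes recognise the hypoxia response element core ACGTG or GCGTG. MDL-1 with a Max-like partner recognises the E-box CACGTG, which contains ACGTG on both strands.

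Optimal peaks lay near 4 of the 6 genes. There were 3 at hif-1, 2 at cysl-1, 1 at egl-9 and 1 at aha-1, and none at vhl-1 or rhy-1. The sequences around the 4 summits upstream or inside hif-1 and egl-9, and around both summits upstream of cysl-1, are shown first, since the words they hold differ from peak to peak. Each line gives 201 bases centred on the summit, read from the plus strand of the WBcel235 (ce11) genome, with CACGTG and the hypoxia response element cores ACGTG and GCGTG, on either strand, in capitals.
egl-9 upstream peak, chrV:10466643-10466843: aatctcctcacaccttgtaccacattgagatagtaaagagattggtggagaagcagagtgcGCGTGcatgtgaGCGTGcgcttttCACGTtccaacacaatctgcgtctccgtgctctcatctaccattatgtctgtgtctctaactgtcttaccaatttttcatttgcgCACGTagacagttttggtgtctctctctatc
hif-1 far upstream peak, chrV:20776851-20777051: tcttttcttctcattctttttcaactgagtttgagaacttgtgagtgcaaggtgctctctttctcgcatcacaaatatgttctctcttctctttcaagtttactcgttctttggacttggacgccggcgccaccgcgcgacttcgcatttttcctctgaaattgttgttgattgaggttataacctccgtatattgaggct
hif-1 upstream peak, chrV:20778274-20778474: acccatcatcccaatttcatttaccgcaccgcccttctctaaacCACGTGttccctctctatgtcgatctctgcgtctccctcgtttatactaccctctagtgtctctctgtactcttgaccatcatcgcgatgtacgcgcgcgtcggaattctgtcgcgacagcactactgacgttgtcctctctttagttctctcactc
hif-1 internal peak, chrV:20782343-20782543: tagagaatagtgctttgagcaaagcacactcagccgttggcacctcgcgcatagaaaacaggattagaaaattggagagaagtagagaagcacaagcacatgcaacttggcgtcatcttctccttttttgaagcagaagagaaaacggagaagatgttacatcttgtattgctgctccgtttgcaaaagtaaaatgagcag
cysl-1 far upstream peak, chrX:9958650-9958850: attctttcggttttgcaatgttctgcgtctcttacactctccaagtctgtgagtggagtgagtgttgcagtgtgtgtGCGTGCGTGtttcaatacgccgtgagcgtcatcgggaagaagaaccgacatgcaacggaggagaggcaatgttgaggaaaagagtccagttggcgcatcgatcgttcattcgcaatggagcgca
cysl-1 near upstream peak, chrX:9956658-9956858: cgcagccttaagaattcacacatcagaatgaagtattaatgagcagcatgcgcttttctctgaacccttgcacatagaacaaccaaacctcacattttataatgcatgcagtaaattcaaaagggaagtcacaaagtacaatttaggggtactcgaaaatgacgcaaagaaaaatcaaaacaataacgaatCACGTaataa

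The strongest signal among these genes belonged to egl-9, which encodes the oxygen-dependent brake on HIF-1. Its peak, spanning 10466609 to 10466885 of chromosome V, reached a signal of 529 and ranked 9 of 1076 in the optimal list. It was the highest of the 152 optimal peaks on chromosome V. In replicate 1 the region had a signal of 280 and rank 9, and in replicate 2 a signal of 249 and rank 10. Both libraries thus placed it among the strongest regions of their 30000. Its summit was 1774 bp upstream of the first annotated start of egl-9 (WBGene00001178, chromosome V from 10468517 to 10476915, plus strand). That is outside the promoter window, which reached 1000 bp before and 200 bp past a start, although no protein-coding start was nearer. The summit lay inside a pair of overlapping ncRNA genes, F22E12.10 on the plus strand and F22E12.9 on the minus strand, so egl-9 is not the only gene at this peak. A second region, inside egl-9 and 152 bp from a start, had a signal of 39.7 at rank 1486 of the pooled list and was not in the optimal list.

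The egl-9 summit was also the richest in hypoxia response element cores. Within 50 bp of the summit there were 2 copies of GCGTG and 1 of ACGTG, none of them part of a CACGTG. The cores were centred 37, 25 and 13 bp to the left of the summit, and 1 E-box of the form CACATG lay between the first 2, centred 31.5 bp from the summit. A canonical CACGTG was not found in the 170 bp to either side. The G and C content of the 101 bases around this summit was 50.5%, near the mean of 49.6% for all optimal peaks.

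**Figure D1:**
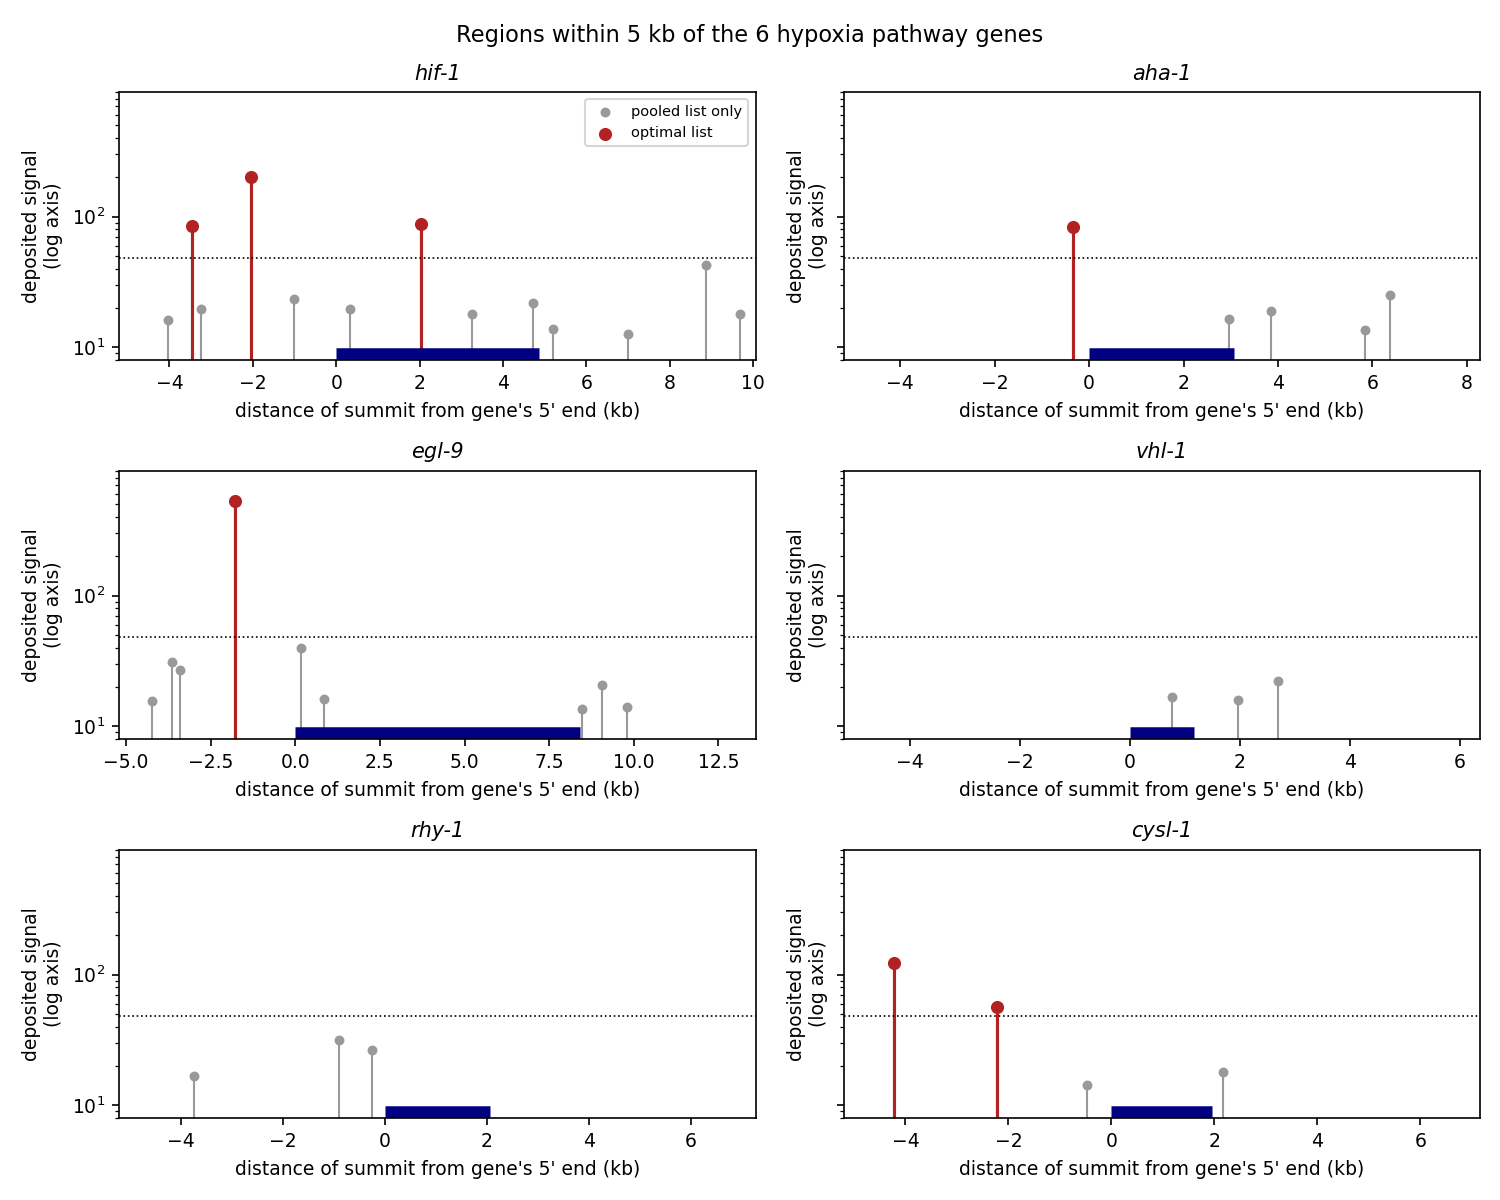
Position of region summits relative to the 5′ end of each gene in kb, with the gene's direction to the right (x axis) and the deposited signal on a log axis (y axis). Red points are peaks of the optimal list, grey points are regions of the pooled list only, the blue bar is the gene, and the dotted line is the lowest signal in the optimal list, 48.3. Red points appear at hif-1, aha-1, egl-9 and cysl-1 and none at vhl-1 or rhy-1.

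hif-1, the gene for the alpha subunit, carried 3 optimal peaks. Across all protein-coding genes 0.36% had 3 or more optimal summits in the same kind of window, a share that is given only for reference because hif-1 was chosen for its peaks. hif-1 (WBGene00001851) lies on the plus strand of chromosome V from 20780407 to 20785260, and its window of 14.9 kb was longer than the median window of 12.03 kb. Its strongest peak, from 20778274 to 20778498, had a signal of 201 and rank 64, with an intergenic summit 2033 bp upstream of the first start. The signal there was 99.9 in replicate 1, at rank 89, and 108 in replicate 2, at rank 51. This peak was the 8th highest of the 152 on chromosome V. It is the only one of the 7 peaks near these genes with a CACGTG in the 170 bp to either side of its summit. That E-box was centred 53.5 bp to the left of the summit, just beyond the 50 bp searched, and came within 50 bp when the summit of replicate 1's own region was used.

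The internal hif-1 peak lay beside an alternative start. From 20782273 to 20782612, it had a signal of 88.5 and rank 401, and its summit fell in an intron 29 bp upstream of the start of transcript F38A6.3c.1. That start lies downstream of the other 3 annotated starts of hif-1. The signal was 50.7 in replicate 1, at rank 376, and 40.4 in replicate 2, at rank 467. An E-box of the form CACATG was centred 1.5 bp from the summit, and no hypoxia response element core lay within 50 bp.

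The far upstream hif-1 peak was less even between the libraries. From 20776781 to 20777120, it had a signal of 84.1 and rank 442, and its intergenic summit was 3456 bp upstream of hif-1 but 1582 bp from the nearest protein-coding start, that of F38A6.4. The signal was 55.03 in replicate 1, at rank 325, and 30.3 in replicate 2, at rank 795. The replicates' summits were 79 bp apart, against 3 to 62 bp at the other 6 peaks and a median of 27 bp for all optimal peaks found in both lists. No E-box of the 2 forms described above and no hypoxia response element core lay within 100 bp of its summit. Beyond the 3′ end of hif-1, a region with a signal of 42.8 at rank 1293 of the pooled list fell short of the optimal list, and it was the strongest region near these genes to do so. The summit of that region lay in an intron of Y44A6D.1, 220 bp from the start of tpan-1 and 6810 bp from the nearest hif-1 start.

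**Figure D2:**
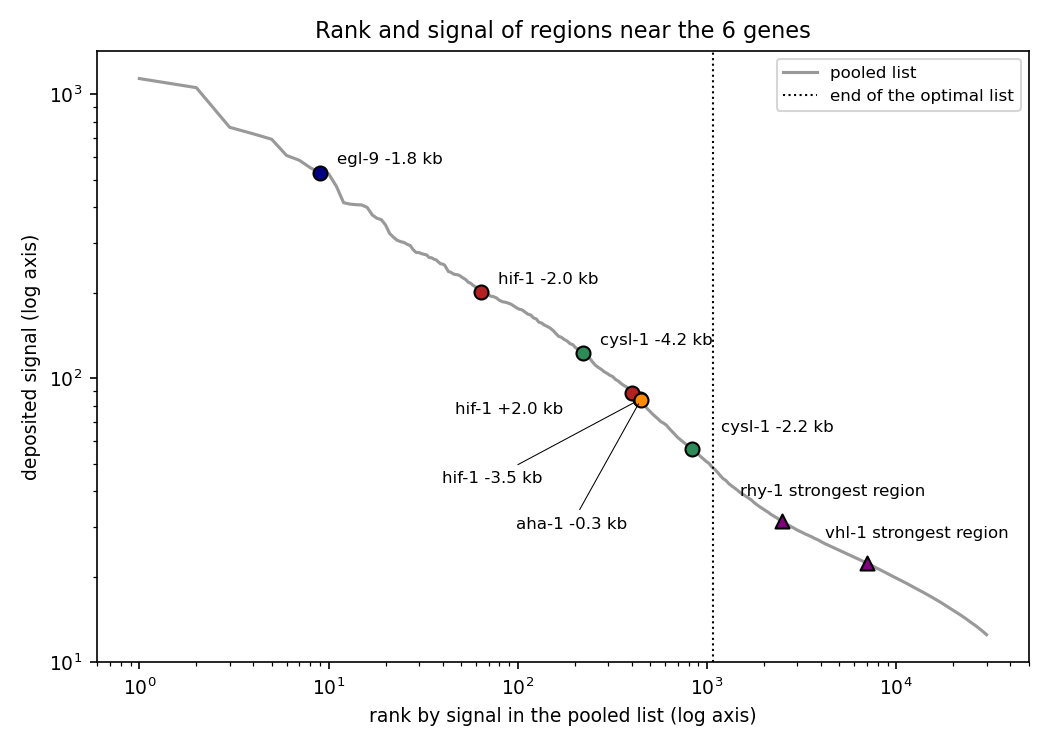
Deposited signal (y axis, log) against rank in the pooled list (x axis, log), with the grey line for the pooled list and the dotted line at the end of the optimal list, rank 1076. Circles are the 7 optimal peaks, labelled with the gene and the distance from its 5′ end, and triangles are the strongest pooled regions at rhy-1 and vhl-1. The circles run from rank 9 at egl-9 to rank 834 at cysl-1, and the triangles lie at ranks 2487 and 6997.

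aha-1, the gene for the beta subunit, had 1 optimal peak with a signal of 83.6 and rank 445. aha-1 (WBGene00000095) lies on the minus strand of chromosome I from 10193925 to 10196997, and the peak spans 10197166 to 10197505. The summit was 339 bp upstream of the aha-1 start and 15 bp from the start of C25A1.15, a protein-coding gene on the opposite strand, within its coding exon. The signal was 48.4 in replicate 1, at rank 410, and 37.2 in replicate 2, at rank 534. Both libraries held the peak among their 1076 strongest regions. A GCGTG was centred 16 bp from the summit and another 87 bp from it, and there was no CACGTG in the 170 bp to either side.

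cysl-1, the gene for the sulphide-linked regulator of EGL-9, had 2 optimal peaks, and both lay closer to the start of a neighbour. cysl-1 (WBGene00007653) lies on the minus strand of chromosome X from 9952579 to 9954533. The stronger peak, from 9958580 to 9958919, had a signal of 123 and rank 221, with a summit 4217 bp upstream of cysl-1 and 210 bp from the start of ZC506.1, which is transcribed away from it. The signal was 72.5 in replicate 1, at rank 190, and 48.2 in replicate 2, at rank 325. A pair of overlapping GCGTG words lay 17 and 21 bp to the left of its summit. The weaker peak, from 9956588 to 9956927, had a signal of 56.3 and rank 834, with an intergenic summit 2225 bp from the cysl-1 start and 2202 bp from that of ZC506.1. Its signal was 31.5 in replicate 1, at rank 834, and 23.6 in replicate 2, at rank 1405. In replicate 2 this region was therefore not among the 1076 strongest, and its deposited −log10 q-value in the optimal list was 2.74, against the maximum of 3.11 at the other 6 peaks. Its nearest hypoxia response element core, an ACGTG, was 93 bp away.

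vhl-1 and rhy-1, the genes for the ubiquitin ligase adaptor and the membrane regulator, had no optimal peak within 5 kb. For rhy-1 (WBGene00012324, chromosome II from 9161379 to 9163448) the strongest pooled region had a signal of 31.3 at rank 2487 and an intergenic summit 886 bp upstream of the start. In replicate 1 the strongest region in the window had a signal of 16.7 at rank 2901, and in replicate 2 it had 14.7 at rank 7072. The latter was beyond the 3′ end of rhy-1, in a coding exon of T23G7.3, so the libraries did not share their strongest region there. A further pooled region 253 bp upstream of rhy-1 had a signal of 26.4. For vhl-1 (WBGene00006922, chromosome X from 11307356 to 11308518) the strongest pooled region had a signal of 22.3 at rank 6997, in an intron of the neighbouring gene F08G12.5. The strongest regions in its window had a signal of 9.38 at rank 13490 in replicate 1 and of 11.0 at rank 16453 in replicate 2. These ranks lie deep in lists that include background, where 87.4% of protein-coding genes had at least 1 pooled summit in their window, and all 6 genes described here did. The nearest optimal summit outside the window was 7.57 kb from vhl-1, with a signal of 54.8, and 48.3 kb from rhy-1. The farthest optimal summit inside a window was the one 4217 bp from cysl-1.

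Counted over genes, 4 of the 6 had an optimal summit within 5 kb, where 10.6% of all protein-coding genes did. Since the genes were picked with these peaks known, nothing follows from that difference. The same 4 genes had a summit among the 1076 strongest regions of replicate 1, where the share of all genes was 10.6%. They also did in replicate 2, where it was 10.9%. This adds no separate support, since the optimal list was made from regions reproducible between these replicates. With the promoter window, hif-1 and aha-1 remained, against 3.07% of all genes. When each summit was given only to the protein-coding gene with the nearest start, hif-1 and egl-9 remained, against 4.19% of all genes, because the aha-1 and cysl-1 summits were nearer to other starts. The strongest egl-9 peak and the upstream hif-1 peak are therefore in no promoter window, and the aha-1 peak is shared.

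The replicates placed the 7 peaks in a similar order. To set the libraries on a common scale, each signal was divided by the median signal of the optimal peaks in the same library, 40.3 in replicate 1 and 37.3 in replicate 2, over the 1070 optimal peaks that overlapped a region in both lists. On this relative scale the egl-9 peak was at 6.81 ± 0.17 (SD, n = 2) and the upstream hif-1 peak at 2.69 ± 0.30. The far upstream cysl-1 peak was at 1.55 ± 0.36. The replicate values of these 3 peaks did not overlap each other, and those of egl-9 and the upstream hif-1 peak overlapped no other peak. The lower value at the far upstream cysl-1 peak, 1.29 in replicate 2, was below the higher value at the far upstream hif-1 peak, 1.37 in replicate 1. The internal hif-1 peak followed at 1.17 ± 0.12, the aha-1 peak at 1.10 ± 0.14 and the far upstream hif-1 peak at 1.09 ± 0.39. Replicate values of these middle 3 overlapped, so their order was not resolved. The weaker cysl-1 peak was lowest in each replicate, at 0.71 ± 0.10.

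The libraries differed least at egl-9 and most at the far upstream hif-1 peak. Across the 1070 peaks the median absolute log2 ratio between the replicates' relative signals was 0.38. It was 0.05 at egl-9, 0.21 to 0.48 in size at the other peaks except the far upstream hif-1 peak, and 0.75 at that one, where replicate 1 was higher. A larger difference was seen at 19.8% of the 1070 peaks. No p-value is given for the members' signals, since 2 replicates of 1 group allow no comparison between conditions; the labels call them biological replicates without saying how they were grown.

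**Figure D3:**
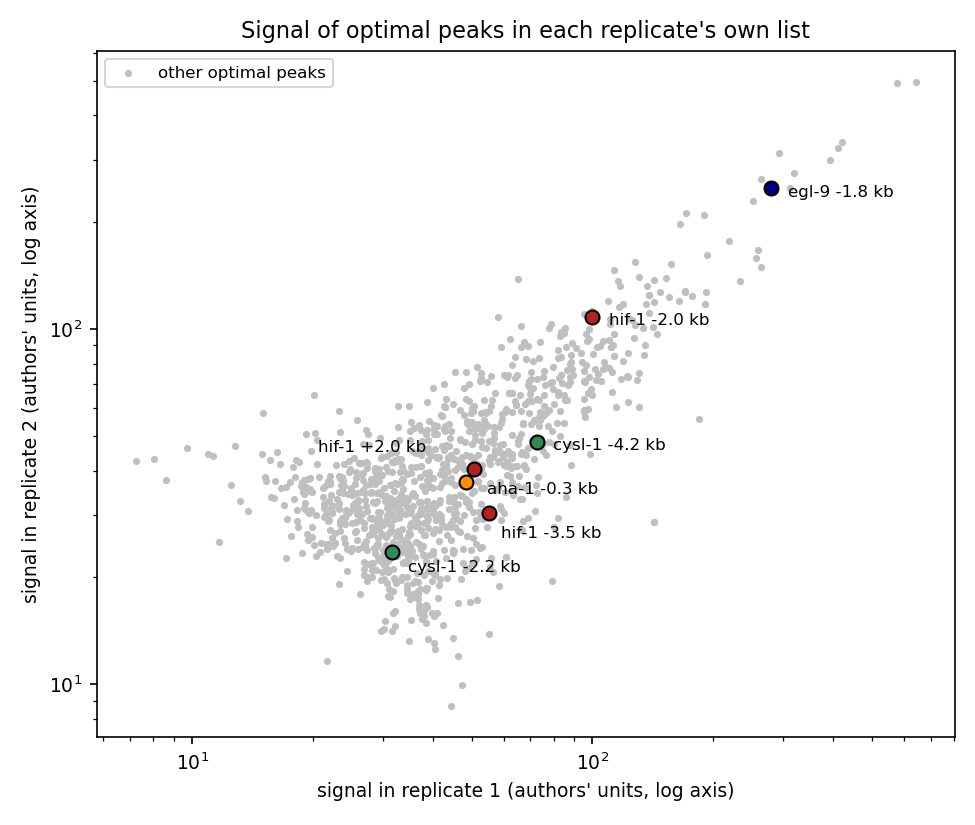
Signal in replicate 1 (x axis) against replicate 2 (y axis), both log axes in the authors' units, for the 1070 optimal peaks with a region in both lists. Grey points are other optimal peaks and coloured points are the 7 peaks near egl-9, hif-1, cysl-1 and aha-1. The egl-9 point lies at 280 and 249, near the upper end, and the far upstream hif-1 point, at 55.03 and 30.3, is farthest from the others in balance.

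The canonical E-box did not occur within 50 bp of any of the 7 summits. Of all 1076 optimal peaks, 22.03% held CACGTG in this window of 101 bases, as did 3.26% of pooled regions. It was in 1.21% and 1.95% of windows centred 300 bp to the left and right of the optimal summits. Among windows of the same length just before the start of protein-coding genes, 2.47% held it. Mean G and C content was 49.6% at optimal peaks, 33.8% in pooled regions, 35.6% on either flank and 33.2% before gene starts. The part of base composition in these shares was not tested. The windows of the 6 genes held 12 CACGTG sites, at 1.47 per 10 kb against 1.77 in the genome. None of the 12 was within 50 bp of an optimal or a pooled summit. Genome-wide, 1.44% of 17729 sites were near an optimal summit and 5.91% near a pooled one. With only 7 peaks and 12 sites, neither absence was tested against these shares, and neither marks these genes as different. There were 5 sites at hif-1, 3 at aha-1, 2 at rhy-1, 1 each at egl-9 and vhl-1, and 0 at cysl-1.

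Hypoxia response element cores were found at 3 of the 7 summits, those of egl-9, aha-1 and the far upstream cysl-1 peak. GCGTG was present at all 3 and ACGTG at egl-9 only. Either core occurred in 54.4% of all optimal peaks, in 15.6% of pooled regions and in 17.6% of the windows before gene starts. Mean G and C content in these sets was 49.6%, 33.8% and 33.2%, and its part in the shares was not tested. Counting only cores outside CACGTG, which removes the overlap between the words, 3 of the 7 compared with 37.7% of all optimal peaks. A word of 5 letters is common, so a match is a description and not a bound site. A further 3 words were searched, some of them known from earlier work on these data to be frequent at the summits, and with 7 peaks their counts were not tested against the list. GAGAGA was within 50 bp in 4 of 7, at aha-1 and all 3 hif-1 peaks, against 35.1% of optimal peaks, and GACGCA in 2 of 7, at egl-9 and the upstream hif-1 peak, against 21.5%. CACATG occurred in 2 of 7, at egl-9 and the internal hif-1 peak, against 9.76%.

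**Figure D4:**
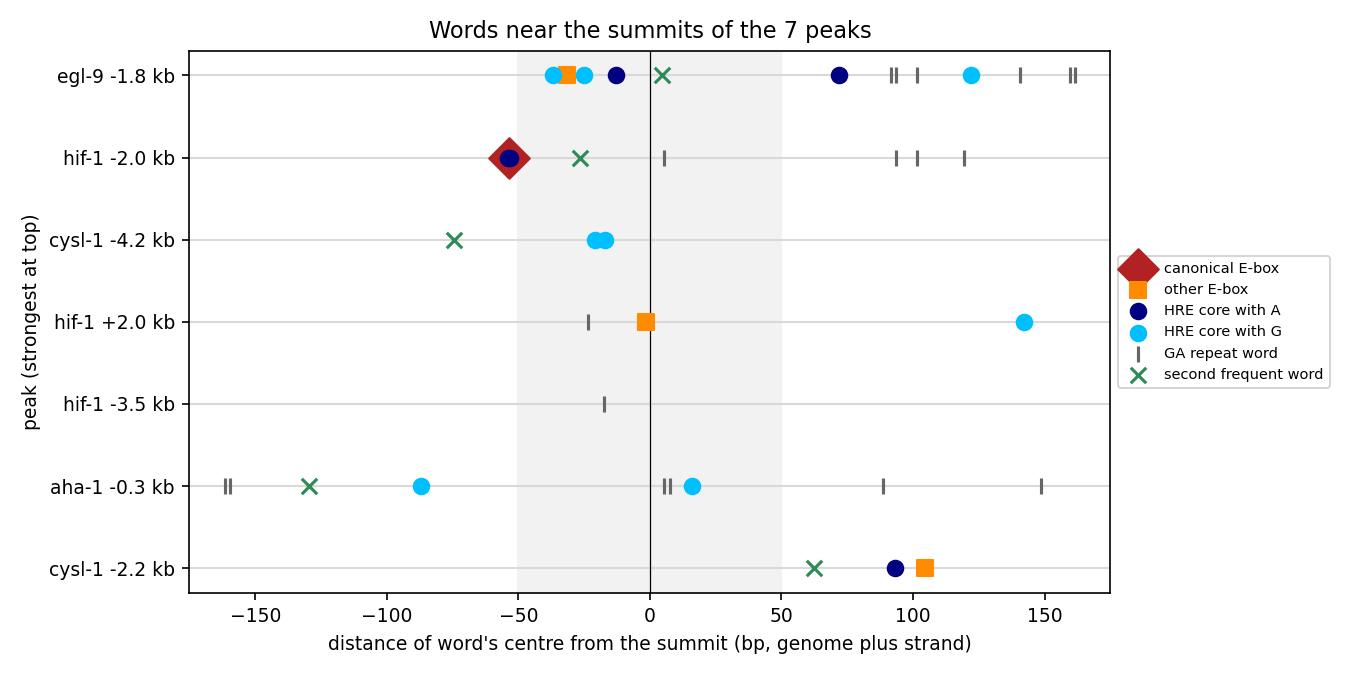
Distance in bp of each word's centre from the summit on the plus strand (x axis) for the 7 peaks, strongest at the top (y axis), with the searched 50 bp to each side shaded. HRE cores are the hypoxia response element words ending in GTG, in the form with A and the form with G, the other E-box is the CACATG form, and the second frequent word is the GACGCA form. The egl-9 peak holds 3 cores in the shaded zone, and the only canonical E-box, at the upstream hif-1 peak, is 53.5 bp away.

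Other genes of the pathway were taken from a wider list of 36 genes, of which 8, or 22.2%, had an optimal summit within 5 kb, against 10.6% of all genes. The wider list was written with earlier results of these data known, so its counts are a description and carry no test. The exact (Clopper-Pearson) 95% interval of the 22.2% ran from 10.1% to 39.2%, for counting error only. Each interval in this paragraph treats the genes as independent draws, which chosen genes are not, so none is a test against all genes. The count differed between the libraries. Among replicate 1's 1076 strongest regions it was 7 of 36, or 19.4% (interval from 8.19% to 36%), where the share of all genes was 10.6%. Among replicate 2's it was 10 of 36, or 27.8% (interval from 14.2% to 45.2%), where the share of all genes was 10.9%. With the nearest start only the count was 4 of 36, or 11.1% (interval from 3.11% to 26.1%), where the share of all genes was 4.19%. In the promoter window it was 3 of 36, or 8.33% (interval from 1.75% to 22.5%), where the share of all genes was 3.07%. The listed genes also had wider windows, with a median of 13.1 kb against 12.03 kb, and the part of window size in their counts was not tested. By group, the counts were 3 of 10 genes of sulphide and cysteine metabolism, 1 of 8 HIF-1 target genes, 1 of 5 oxygen-sensing guanylate cyclase and globin genes, 1 of 4 partners of VHL-1 in the ubiquitin ligase, and 2 of 2 genes of the HIF-1-independent response. The 4 other EGL-9 or cysteine synthase-like genes and the 3 other bHLH-PAS genes had none.

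The strongest of these was at hpk-1, a homeodomain-interacting protein kinase gene, with a signal of 296 at rank 26. It was at 153 in replicate 1 and 139 in replicate 2, but its summit lay beyond the 3′ end of hpk-1 and 1812 bp from the start of F20B6.9. ethe-1, the gene for a persulfide dioxygenase that handles hydrogen sulphide, had a signal of 96.5 at rank 348, with 51.9 and 44.2 in the replicates, and its summit was 225 bp from the start of C33A12.3. nhr-49, a nuclear receptor gene, had 95.8 at rank 351, with 58.0 and 42.3, and its summit was 334 bp from its own start. Only 4 of the 8 genes, nhr-49, cdo-1, gcy-33 and cyp-36A1, were themselves the nearest start to their peak.

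The other 5 peaks ranked between 512 and 1023 of 1076. cdo-1, the gene for cysteine dioxygenase, had a signal of 75.1 with its summit 828 bp from its start, at 32.2 and 45.1 in the replicates. mpst-1, a mercaptopyruvate sulfurtransferase gene, had 59.9, at 29.8 and 38.9. cyp-36A1, a cytochrome P450 gene, had 56.4, at 23.8 and 34.5. By raw signal all 3 were higher in replicate 2, as were gcy-33 and elc-1, while hpk-1, ethe-1 and nhr-49 were higher in replicate 1. Of the 7 peaks near the core genes, 6 were higher in replicate 1. gcy-33, a guanylate cyclase gene of oxygen-sensing neurons, had 52.8 with replicate ranks of 3113 and 364, so the libraries disagreed most there. elc-1, the elongin C gene of the VHL-1 ligase, had 50.2 at rank 1023, with its summit 338 bp from the start of Y82E9BR.3.

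For the 2 peaks in a promoter window of their own gene, the genes with the most similar promoter peaks were found by the distance of log2 signals over the 2 replicates, among 609 genes. For the internal hif-1 peak these were Y111B2A.12 and epc-1, which share 1 peak with signals of 52.5 and 40.8 in the replicates, at a distance of 0.05. For the aha-1 peak they were myrf-1, with 51.7 and 37.5, at 0.10, and unc-115, with 51.8 and 37.0, at 0.10. These matches describe signal size in 2 samples and nothing more.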

How the data were processed

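Peak lists from 2 replicates of 1 group were used. The deposited text descriptions derive the replicate and pooled lists from the alignments and 1 further file, and the optimal list from those 3 lists. No source used here names the aligner, the caller or the reproducibility threshold. Every region has a signal and a −log10 q-value deposited by the authors. Signals served only for ranking within a list, for description and, divided by a library median, for comparing replicates. Read depth is unknown, since no read counts were analysed, so precision rests on 2 replicates and the number of peaks. The intervals cover counting error only.

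Lists in ce11 were joined to Ensembl release 115 gene models and the RefSeq genome of the same assembly, WBcel235, within whose chromosome ends every region lay. No coordinate was converted. Regions in different lists were matched by at least 1 bp of overlap. Positions count from 1. Counting and word search used Python 3.11.15, were tested on simulated data, and needed no hypothesis test. Of the wider list's 37 symbols, 1 matched no gene. Members and lists were chosen with earlier results of these data known. Named genes were the 6 members, wider-list genes with an optimal summit, genes whose start was nearest to a named peak, and the most similar promoter peaks. Other windows, lists and overlaps were tried as alternatives.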

Additional observations from a re-analysis of the deposited data

How the results depend on the processing

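Of 43 alternative values, 27 stayed within 1.5 times the main count. The tally includes shares of all protein-coding genes, and the ce10 and pooled lists, in which the same peaks recur. It is therefore not a measure of how firm the counts at the 6 genes are. Genes with an optimal summit stayed at 4 of 6 in the peaks above the median signal and when any base of a region counted. They also stayed at 4 in either replicate alone, although the optimal list was made from regions reproducible between these replicates. They numbered 3 within 2 kb, where cysl-1 left, and 5 within 10 kb, where vhl-1 joined. They fell to 2 in the promoter window and to 2 with the nearest start only. The 7 summits became 3 within 2 kb, 2 in the promoter window, 3 with the nearest start only, and 6 to 7 in a single replicate. The share of all protein-coding genes was 6.29% within 2 kb, 17.4% within 10 kb, 3.07% in the promoter window, 5.68% above the median signal, 4.19% with the nearest start only, and 10.6% to 10.9% in a single replicate. The wider list's 8 genes became 3 in the promoter window, 4 above the median signal, 4 with the nearest start only, and 7 to 10 in a single replicate. Within 100 bp of the summit, 5 peaks held a hypoxia response element core and 1 held CACGTG. In a single replicate these counts were 3 to 4 and 0 to 1, the 1 being the upstream hif-1 peak with replicate 1's summit. Reciprocal overlap kept 6 of the 7 peaks in both replicates. All 7 had a ce10 peak of the same rank, chromosome and width. No paired analysis was possible because there was 1 group. Read depth and the absence of a second condition limit all of these values, and 2 replicates limit their spread.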
